A study of Mus musculus with 8 samples.

Results

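The genes described here are 39 mouse genes of the interferon response and of MHC class I antigen presentation, taken by symbol from a list of interferon-stimulated genes, innate RNA sensors and class I presentation genes. All 39 were found among the 55276 genes of the count table, and all 39 were among the 17344 genes with enough counts to be tested. The cells came from the esophageal epithelium of C57BL6 mice aged 14 to 15 weeks, 2 females and 2 males, with no genetic change or treatment named. From each animal 1 suspension of live (DAPI-negative) integrin-b1-positive cells was sorted by Cyto-ID, a dye for autophagic vesicles, into a Cyto-ID Low and a Cyto-ID High fraction. Each fraction gave 1 bulk RNA-seq library, so that 4 Low and 4 High libraries stood against each other. No infection and no interferon treatment is named for these animals.

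Interferons are secreted proteins, and cells release those of type I and type III mainly after sensing foreign nucleic acid. Type I and type III interferons act through receptor chains linked to Janus kinases, which phosphorylate Stat2 among other factors. Stat2 joins Irf9 in a complex that binds the interferon-stimulated response element, a short DNA element near the start of many antiviral genes. Interferon gamma acts in part through Irf1 and is a strong inducer of MHC class I presentation, in which peptides are carried by the Tap transporter into the endoplasmic reticulum and loaded with the help of tapasin on a heavy chain paired with beta-2 microglobulin. In unchallenged epithelium many of the antiviral genes are usually active at a low, tonic level.

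The core of the response element was looked for as GAAANNGAAA, on either strand, in RefSeq promoters of GRCm38.p6 that ran from 250 bases before to 50 bases after each start site. Of the 29 members with a promoter in that table, 14 (48.3%) held the core, against 3.99% of all 27025 genes with a promoter. With a spacer of 2 or 3 bases the core was found in 15 members (51.7%) and in 6.9% of all genes. The gamma-activated site, TTCNNNGAA, was found in 7 of the 29 members (24.1%) and in 9.55% of all genes. The list was written as interferon genes, so these shares describe the list and were not tested. Members without an entry were Dhx58, Usp18, Oas2, Mx1, Mx2, Parp9, Parp14, Rtp4, Tap2 and Nlrc5. The windows below are those of the 8 members that held a core and also differed between the fractions. They are shown because genes with the same element lay on both sides of the comparison. Each window has 30 bases, is written from 5′ to 3′ on the strand of its gene, and has the cores in capitals. A core on the other strand reads TTTCNNTTTC.
Stat2: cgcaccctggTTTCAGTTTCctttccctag
Ifih1: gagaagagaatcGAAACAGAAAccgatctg
Isg15: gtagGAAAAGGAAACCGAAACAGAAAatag
Ifit1: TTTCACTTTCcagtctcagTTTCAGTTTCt
Bst2: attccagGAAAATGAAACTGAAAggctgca
Ddx58: cctgaggcagTTTCGATTTCctatggccag
Gbp2: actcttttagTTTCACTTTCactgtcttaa
B2m: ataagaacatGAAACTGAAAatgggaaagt

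The first 5 of these genes were higher in Cyto-ID High and the last 3 were lower (edgeR, adjusted p under 0.05 over all genes), beside 23.4% and 25.3% of all genes. The other 6 of the 14 members with a core, Oas1a, Oas3, Ifit3, Rsad2, Gbp3 and Gbp7, did not pass the test. Isg15 has 3 overlapping cores in its window at chr4:156200871-156200900 on the minus strand, the first of them starting 78 bases before the start site. Bst2 has 2 overlapping cores, 130 bases before the start site, at chr8:71537580-71537609 on the minus strand. In Ifit1 the pair of cores lies 104 bases before the start site, at chr19:34640785-34640814 on the plus strand. The single cores of Stat2 (chr10:128270266-128270295, plus), B2m (chr2:122147538-122147567, plus) and Gbp2 (chr3:142620594-142620623, plus) lie 222, 139 and 59 bases before the start site. In Ifih1 (chr2:62646206-62646235, minus) and Ddx58 (chr4:40239804-40239833, minus) the core lies just inside the transcript, from base 33 and base 3. A match of letters is a description of the sequence only.

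The libraries held 26285150 to 28599954 counts in Low and 27486049 to 29301054 in High. Levels are scaled read counts (CPM, counts per 1000000 after TMM scaling), and values of 4 libraries are given in the order Female1, Female2, Male1, Male2. Markers of basal keratinocytes, among them the sorted integrin gene Itgb1, were present in all libraries and were lower in High in 7 of 7 cases (summed CPM 20062 to 23813 in Low, 2671 to 4381 in High). Markers of suprabasal keratinocytes were higher in 6 of 6, at 7925 to 23564 summed CPM in Low and 128883 to 222433 in High. The High library of Male2 stood apart. Its summed CPM for 18 leukocyte markers was 3.76, against 25.4 to 72.5 in the other 7 libraries, and 6 of the 18 were at 0 there. Its 6 fibroblast markers summed to 36.6 CPM, against 147 to 480 elsewhere. With these libraries fewer cells of a type and less RNA per cell cannot be told apart.

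The 39 genes did not move as a block between the fractions. By edgeR's quasi-likelihood test with sex as a covariate (adjusted p under 0.05 over all genes tested), 12 members were higher in Cyto-ID High, 6 were lower and 21 did not pass. That is 46.2% of the members, beside 48.7% of all 17344 genes. The share called higher was 30.8%, beside 23.4% of all genes, and the share called lower was 15.4%, beside 25.3%. The 4 Low and 4 High values did not overlap in 15 of the 39 members and in 48.6% of all genes. The median log2 fold change of the members was −0.00, with single genes from −2.33 (Irf1) to 2.86 (Oasl1), and that of all genes was −0.09. Within the animals the median difference of the members was 0.17 and 0.40 in the females (Female1, Female2) and −0.07 and −0.27 in the males (Male1, Male2). With High Male2 left out, 11 members were higher and 5 lower, and Dhx58 and B2m lost their call. TMM scaling factors were 1.16 to 1.30 in Low and 0.679 to 0.944 in High. Scaling by total counts alone moved the median of all genes to −0.64, and then 6 members were higher and 11 lower. Under that scaling Stat2, Dhx58, Oas2, Ifit1, Ifi35 and H2-K1 lost their call, and Irf3, Isg20, Parp9, Tap1 and Tap2 were called lower.

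**Figure D1:**
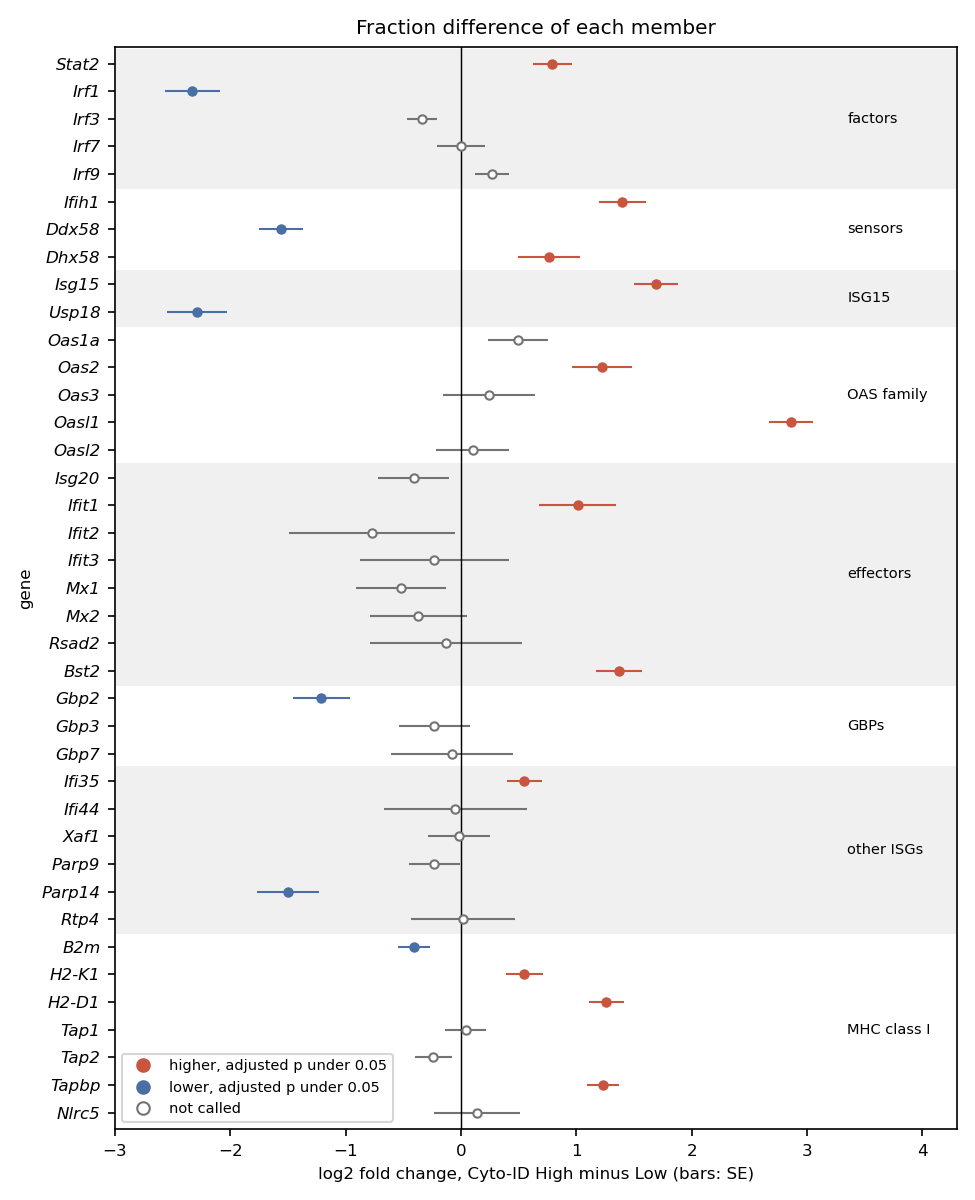
Log2 fold change (Cyto-ID High minus Low, x axis) of each of the 39 members, grouped by role, from the edgeR fit over 8 libraries with bars of 1 standard error. Filled points mark the 12 members called higher and the 6 called lower, and every role except the Oas family, the effectors and the guanylate-binding proteins has points on both sides of the line among its filled ones.

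Among the transcription factors of the response, Stat2 was higher and Irf1 was lower in Cyto-ID High, and Irf3, Irf7 and Irf9 did not pass the test. Irf1, the factor that carries much of the interferon gamma response, was at 59.1, 80.2, 71.6 and 74.1 CPM in Low and at 10.8, 14.4, 10.1 and 22 CPM in High. Every High library lay below every Low library, with a log2 fold change of −2.33 (SE 0.24, adjusted p 5.37e-05 by edgeR), the largest fall of any member in this fit. Stat2, the partner of Irf9 at the response element, was at 18.7, 14.4, 14.4 and 10 CPM in Low and 24.6, 31.6, 21.9 and 20.7 CPM in High. It was higher in all 4 animals without overlap, by 0.79 on the log2 scale (SE 0.17, adjusted p 0.00334 by edgeR). Under total counts alone the Stat2 difference was 0.22 and did not pass.

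Irf9, the DNA-binding part of that complex, was at 25.2, 29.2, 25.5 and 20.6 CPM in Low and 30.2, 38.5, 23.7 and 29.6 CPM in High, and the ranges overlapped (log2 fold change 0.27, SE 0.15, adjusted p 0.165 by edgeR). Irf3, the latent factor that starts interferon production, was at 48, 42.6, 52.3 and 40.5 CPM in Low and 38.4, 33.8, 36.4 and 36.7 CPM in High. All 4 Irf3 values in High were below those in Low, yet the difference of −0.34 (SE 0.13) had an edgeR adjusted p of 0.0562. A fit with each animal as a replicate block gave −0.33 and an edgeR adjusted p of 0.0323, in a range of 0.000901 to 0.159 over all fits. Irf7, which amplifies interferon production, was at 5.78, 5.39, 4.5 and 4.92 CPM in Low and 8.1, 6.09, 3.93 and 3.34 CPM in High. Both female animals were higher in High and both male animals lower, and the fitted difference was −0.00 (SE 0.21, adjusted p 0.989 by edgeR).

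The 3 cytosolic RNA helicases of the RIG-I family split. Ifih1 encodes MDA5, a sensor of long double-stranded RNA, and lies at chr2:62595618-62646255 (GRCm38.p6). It was at 10.6, 15.1, 10.1 and 11.7 CPM in Low and at 25, 43.4, 26.4 and 30.9 CPM in High. Its High libraries were all above its Low libraries, by 1.40 on the log2 scale (SE 0.20, adjusted p 0.000322 by edgeR). Ddx58, at chr4:40203777-40239825, encodes RIG-I itself, the sensor of short RNA with triphosphate ends. It went the other way, from 14.1, 18.9, 13.9 and 12.8 CPM in Low to 5.4, 6.36, 3.36 and 5.25 CPM in High (log2 fold change −1.56, SE 0.19, adjusted p 0.000119 by edgeR). Scaled to exon length, the mean level of Ifih1 was below that of Ddx58 in Low (1.45 and 2.11 CPM per kb) and above it in High (3.85 and 0.722 CPM per kb). Dhx58, or LGP2, a relative without the signalling domains, was at 1.67, 1.84, 1.27 and 1.06 CPM in Low and 3.16, 4.31, 1.37 and 1.7 CPM in High. It was higher in 4 of 4 animals (0.76, SE 0.27, adjusted p 0.0401 by edgeR), but the ranges overlapped. The Dhx58 call was lost when any 1 library other than High Male1 was left out. It was also lost under total counts, with no count filter, with no sex covariate and with the animals' label number in place of sex.

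Isg15 and Usp18, an interferon-stimulated ubiquitin-like protein and the protease that removes it, also went opposite ways. Isg15 (chr4:156199424-156200818) was at 2.93, 2.67, 1.4 and 1.69 CPM in Low and 9.26, 9.62, 4.19 and 5.3 CPM in High. All High values were above all Low values, with a log2 fold change of 1.69 (SE 0.19, adjusted p 7.17e-05 by edgeR). Within both fractions the females had more Isg15 than the males. Usp18 (chr6:121245906-121270917), which also binds the Ifnar2 chain and damps the receptor, was at 15, 18.3, 18.2 and 18.7 CPM in Low and 4.13, 4.88, 1.91 and 3.81 CPM in High. It fell by 2.29 on the log2 scale (SE 0.26, adjusted p 7.64e-05 by edgeR), in all 4 animals and without overlap.

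**Figure D2:**
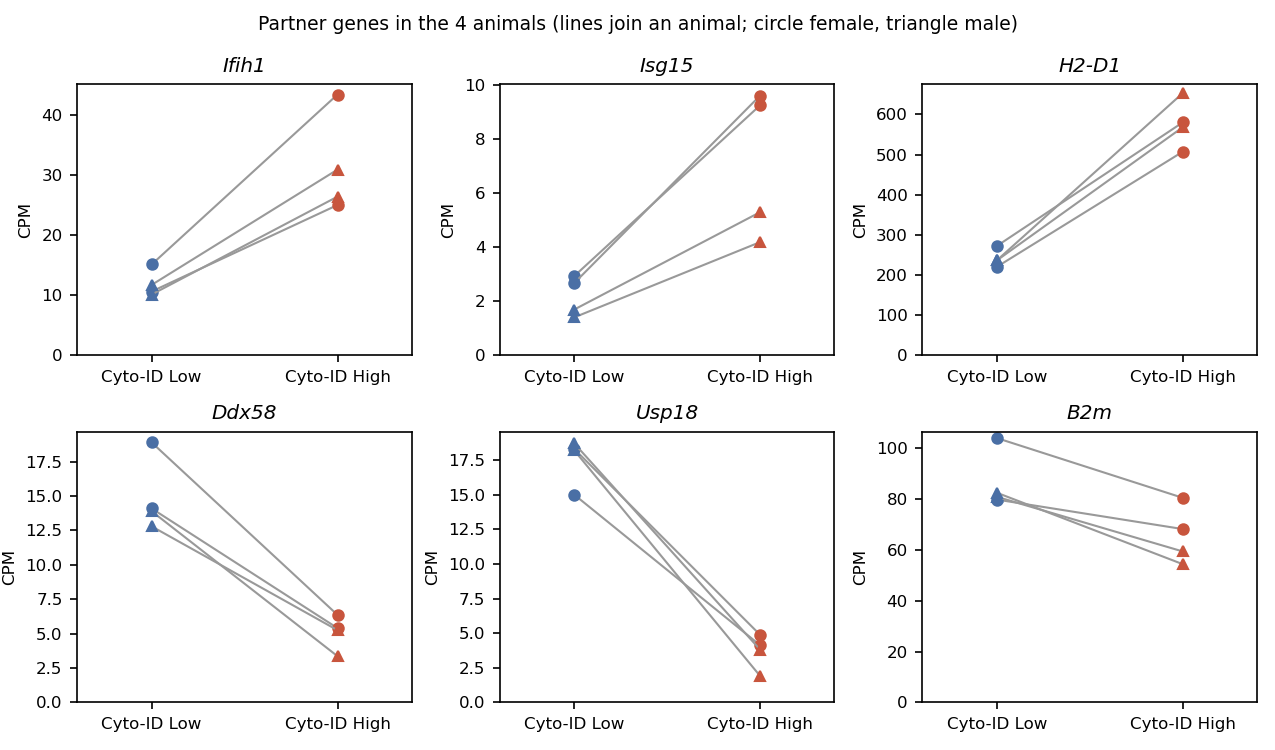
CPM (y axes, each from 0) of 6 genes in the Cyto-ID Low and High library of each animal, with a line joining the libraries of 1 animal, circles for females and triangles for males. In all 4 animals the upper genes Ifih1, Isg15 and H2-D1 go up from Low to High while the lower genes Ddx58, Usp18 and B2m go down.

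The oligoadenylate synthetases make the messenger that activates RNase L, and their family also holds synthetase-like genes. Oasl1 (chr5:114923143-114937911), a synthetase-like protein without enzyme activity that in mice restrains translation of Irf7, was at 3.77, 3.57, 2.14 and 3.5 CPM in Low and at 25.2, 21.2, 24.4 and 23.1 CPM in High. The means were 3.25 ± 0.744 CPM in Low and 23.5 ± 1.73 CPM in High (SD, n = 4 each). The log2 fold change of 2.86 (SE 0.19, adjusted p 1.31e-05 by edgeR) was the largest of any member in this fit. Oas2 was at 3.3, 2.39, 1.27 and 1.03 CPM in Low and 7.45, 8.45, 2.78 and 1.59 CPM in High. It was higher in 4 of 4 animals (1.22, SE 0.26, adjusted p 0.00341 by edgeR), while the male High values lay inside the Low range. Under total counts the Oas2 difference was 0.68 and its edgeR adjusted p was 0.0773, the highest over all fits, of which the lowest was 3.24e-05. With the label number of the animals in place of sex it was 0.0558, and the call was also lost without the sex covariate. Oas1a, Oas3 and Oasl2 did not pass the test, with fitted log2 fold changes of 0.49, 0.24 and 0.10. Oasl2 was at 6.39, 8.74, 4.88 and 4.04 CPM in Low and 8.76, 16.7, 2.94 and 2.93 CPM in High, so that both females were higher in High and both males lower.

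Of the 8 antiviral effectors 2 (25%) were higher and 0 lower, beside 23.4% and 25.3% of all genes. Bst2, or tetherin, which holds budding virus at the cell surface, was at 3.98, 3.16, 2.52 and 2.99 CPM in Low and 11.5, 7.88, 6.44 and 7.2 CPM in High. It rose without overlap by 1.37 on the log2 scale (SE 0.20, adjusted p 0.000312 by edgeR). Ifit1, which binds viral RNA that lacks the host cap methylation, was at 1.17, 0.825, 0.435 and 0.664 CPM in Low and 2.43, 3, 0.801 and 0.772 CPM in High (1.01, SE 0.33, adjusted p 0.0296 by edgeR). The Ifit1 call rested on 14 to 38 counts per Low library and 15 to 69 per High library, and it was lost without Low Female1, High Female1, Low Female2, High Female2 or Low Male1. It was also lost under total counts, without the count filter, without the sex covariate and with the label number in its place. Isg20, an exonuclease, was at 32.4, 11.1, 34.2 and 30.5 CPM in Low and 18.4, 15.2, 17.2 and 30.5 CPM in High, which overlapped (−0.41, SE 0.31, adjusted p 0.311 by edgeR). Ifit2, Ifit3, the Mx GTPases Mx1 and Mx2, and Rsad2 (viperin) were all under 2 CPM in every library and none passed, with fitted log2 fold changes of −0.77 to −0.13. These 5 genes had 0 to 43 counts per library.

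Guanylate-binding proteins are large GTPases that attack vacuoles of intracellular pathogens. Gbp2 was at 4.35, 5.25, 4.16 and 4.71 CPM in Low and 2.97, 2.13, 1.26 and 1.85 CPM in High, lower in all animals without overlap (−1.21, SE 0.25, adjusted p 0.0028 by edgeR). Gbp3 and Gbp7 did not pass, at 1.39 to 1.79 and 0.777 to 1.48 CPM in Low and 0.72 to 2.39 and 0.154 to 1.6 CPM in High. Among the other interferon-stimulated genes Parp14, a mono-ADP-ribosyltransferase, was at 7.07, 9.02, 6.77 and 5.58 CPM in Low and 3.86, 2.83, 2.48 and 1.13 CPM in High. Its fall of −1.50 on the log2 scale (SE 0.27, adjusted p 0.00131 by edgeR) was without overlap. Ifi35 was at 12.6, 12.7, 12 and 13.2 CPM in Low and 17.4, 19.2, 15.4 and 21.8 CPM in High (0.55, SE 0.15, adjusted p 0.0121 by edgeR), but under total counts its difference was −0.03, and without the count filter the call was lost. Parp9, which pairs with the ubiquitin ligase Dtx3l, ranged from 14.3 to 20.1 CPM in Low and 8.66 to 21.4 CPM in High (−0.23, SE 0.22, adjusted p 0.443 by edgeR). Xaf1, Rtp4 and Ifi44 had fitted log2 fold changes of −0.02, 0.02 and −0.05 and did not pass.

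**Figure D3:**
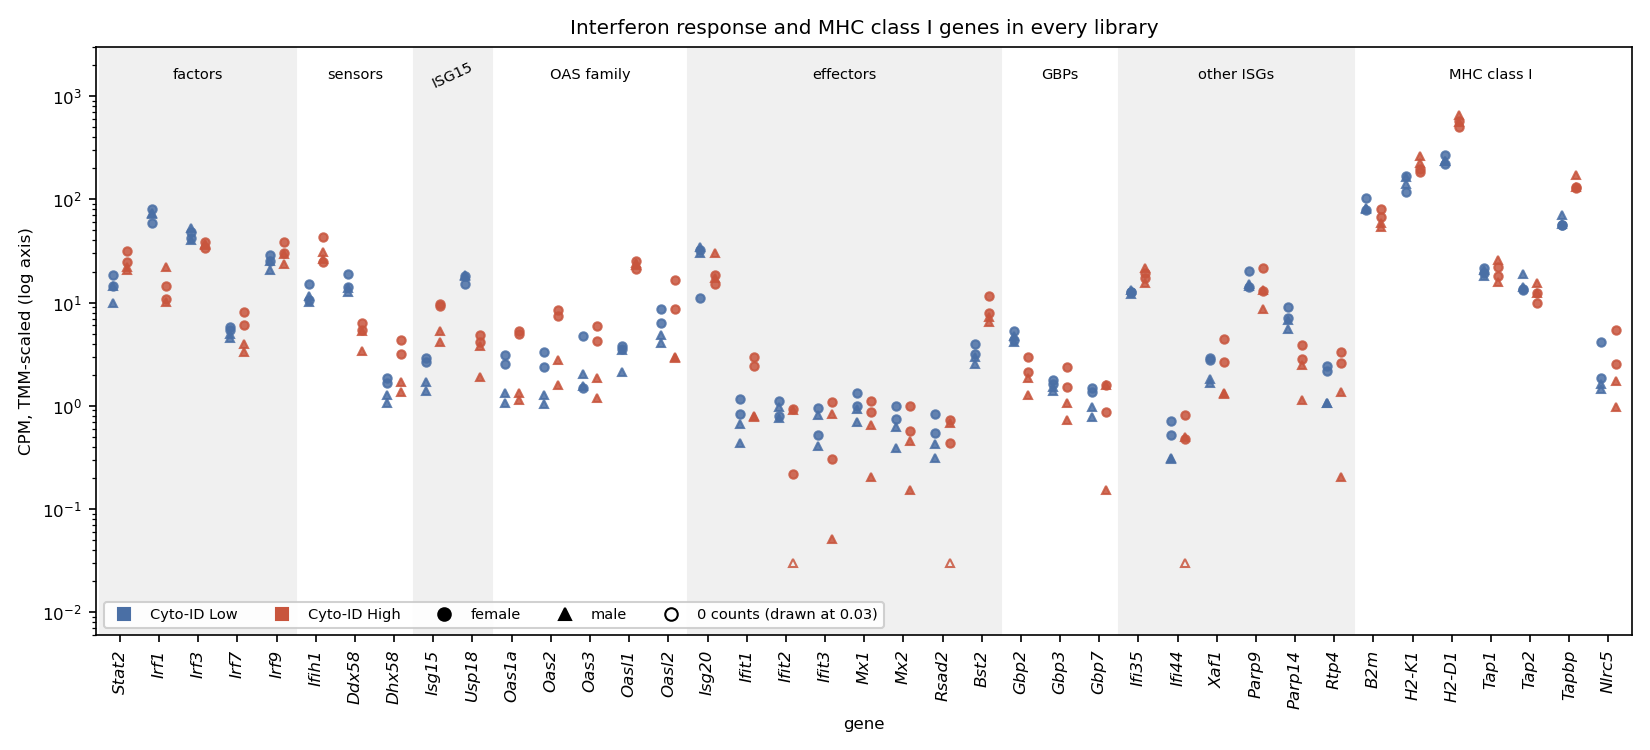
CPM (TMM-scaled, log y axis) of each member in each of the 8 libraries, blue for Cyto-ID Low and red for High, circles for females and triangles for males, with open symbols, set near the bottom, for libraries without a count. Oasl1, Isg15, Ifih1, H2-D1 and Tapbp show red above blue, Irf1, Ddx58 and Usp18 show blue above red, and the effectors from Ifit2 to Rsad2 overlap at under 2 CPM.

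In the class I presentation group 3 of 7 genes were higher in Cyto-ID High (H2-K1, H2-D1 and Tapbp), 1 was lower (B2m) and 3 did not pass (Tap1, Tap2 and Nlrc5). The share called was 57.1%, beside 48.7% of all genes. The classical heavy chain H2-D1 (chr17:35263094-35267497) was at 272, 220, 236 and 236 CPM in Low and 580, 507, 568 and 653 CPM in High. Its means were 241 ± 21.9 and 577 ± 59.9 CPM (SD, n = 4 each), and the rise was 1.26 on the log2 scale (SE 0.15, adjusted p 0.000129 by edgeR). Tapasin (Tapbp), which bridges the heavy chain to the peptide transporter, was at 56.6, 57, 58 and 70.9 CPM in Low and 129, 132, 133 and 174 CPM in High. It rose in 4 of 4 animals by 1.23 (SE 0.14, adjusted p 8.86e-05 by edgeR). H2-K1 (chr17:33996012-34000619), the other classical heavy chain, was at 167, 117, 165 and 142 CPM in Low and 197, 185, 226 and 266 CPM in High. Its rise of 0.55 (SE 0.16, adjusted p 0.0183 by edgeR) was without overlap, but under total counts the value was −0.01.

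Beta-2 microglobulin (B2m, chr2:122147687-122153082), the light chain that every class I molecule needs, was at 104, 79.8, 80.9 and 82.5 CPM in Low and 80.5, 68.2, 59.4 and 54.4 CPM in High. It was lower in 4 of 4 animals (−0.41, SE 0.14, adjusted p 0.0329 by edgeR), although the highest High value lay inside the Low range. The B2m call did not hold with RLE factors, in DESeq2, without the count filter or without the sex covariate. It was also lost when either library of Male1 or Male2, Low Female1 or High Female2 was left out, and over all fits the adjusted p ran from 0.00101 to 0.0966. Per kb of merged exon, the Low and High levels were 101 and 76.3 CPM for B2m, 93.4 and 224 for H2-D1 and 50.2 and 74.3 for H2-K1. These 3 genes had the highest levels per kb of the 39 members in both fractions, and Ifi44 had the lowest, at 0.0753 in Low and 0.0728 in High. Of the transporter, Tap1 was at 19.5, 21.7, 18 and 20.6 CPM in Low and 18.1, 21.9, 15.8 and 26 CPM in High (0.04, SE 0.18, adjusted p 0.896 by edgeR). Under total counts the Tap1 difference was −0.55, with the lowest adjusted p of any fit, 0.00485, in a range up to 0.989. Tap2 was at 13.1, 13.5, 14.2 and 18.9 CPM in Low and 12.4, 9.93, 12.5 and 15.6 CPM in High (−0.24, SE 0.16, adjusted p 0.24 by edgeR). Nlrc5, the transactivator of class I genes, was at 4.17, 1.87, 1.62 and 1.45 CPM in Low and 5.48, 2.53, 1.75 and 0.977 CPM in High, with overlap (0.14, SE 0.37, adjusted p 0.789 by edgeR).

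Some of these values carry a limit of counting. Whether strand was used in counting is not given in the sources used here. In the GENCODE M21 annotation exons of Tap1 overlap Psmb9, those of Irf3 overlap Bcl2l12, those of Parp9 overlap Dtx3l and those of Usp18, Irf1 and Oasl1 overlap predicted genes, each on the other strand. Tapbp overlaps Gm19412 on the other strand by 904 exon bases and Zbtb22 on its own strand by 149. On their own strand Gbp7 overlaps Gm43802 by 637 bases, Rtp4 overlaps Gm45338 by 296, Irf9 overlaps Rnf31 by 123 and Parp14 overlaps Gm49730 by 110. Exons of Tap2 overlap Gm15821 on the other strand by 533 bases. Those of Ifi35 overlap Gm11626 by 290 bases and those of Dhx58 overlap Dhx58os by 141, both on the other strand. Nlrc5, Irf7 and Gbp2 have other-strand overlaps of 78, 45 and 24 bases. H2-K1 and H2-D1 are near-identical over long stretches to each other and to H2-Q and H2-T genes, and the Ifit, Oas, Gbp and Mx genes have close paralogs, so a split of their reads between copies is uncertain.

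The receptors of the pathway split as well. A wider list of 92 interferon and class I genes, none of them members, had 80 that could be tested, of which 20 were higher, 17 lower and 43 not called. The share called was 46.2%, close to the 48.7% of all genes. Of the type I receptor, Ifnar2 fell from 11.9 ± 1.6 to 2.16 ± 0.738 CPM (SD, n = 4 each), by 2.45 on the log2 scale (SE 0.26, adjusted p 5.68e-05 by edgeR). Ifnar1 was at 19.6, 26.2, 24.5 and 21.4 CPM in Low and 15.3, 15.2, 15.1 and 12.2 CPM in High (−0.67, SE 0.15, adjusted p 0.00455 by edgeR). For interferon gamma, the ligand-binding chain Ifngr1 was lower (−0.54, SE 0.15, adjusted p 0.0145 by edgeR) and the signalling chain Ifngr2 was higher, from 13.4 ± 2.61 to 35.8 ± 4.93 CPM (1.41, SE 0.18, adjusted p 0.000141 by edgeR). The Ifngr1 call was lost without High Male1, with an edgeR adjusted p of 0.0502. For type III interferon, Il10rb rose by 0.97 (SE 0.18, adjusted p 0.00132 by edgeR), which under total counts was 0.39 and did not pass, and the specific chain Ifnlr1 did not pass (0.17, SE 0.23, adjusted p 0.598 by edgeR).

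Transcripts of the interferons themselves had few or no counts. Ifnb1, Ifnl2 and Ifnl3 had 0 counts in all 8 libraries, which allows up to 0.0826 to 0.154 CPM per library (3 counts, counting error only). Ifnk, an epithelial type I interferon, had 1 to 5 counts per Low library and 0 to 1 per High library, Ifne had at most 2 and Ifng at most 3. None of the 6 could be tested.

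The 4 largest rises of the wider list among genes of at least 5 CPM were in Rnf213, H2-T22, Samhd1 and Mavs. Rnf213, an interferon-inducible ubiquitin ligase, went from 24.2 to 83.3 CPM (1.81, SE 0.19, adjusted p 4.64e-05 by edgeR). Mavs, the mitochondrial adaptor on which both Ifih1 and Ddx58 act, went from 23.6 to 65.2 CPM (1.45, SE 0.23, adjusted p 0.000624 by edgeR). The nonclassical class I gene H2-T22 rose by 1.49 (SE 0.20, adjusted p 0.000209 by edgeR) and the nucleotide hydrolase Samhd1 by 1.47 (SE 0.17, adjusted p 8.48e-05 by edgeR). The 4 largest falls were in Ifitm3, Socs3, Ifnar2 and Tlr3. Ifitm3, which blocks viral entry at membranes, fell from 150 ± 24.5 to 21.3 ± 5.39 CPM (SD, n = 4 each), by 2.81 on the log2 scale (SE 0.21, adjusted p 1.52e-05 by edgeR). Socs3, a feedback inhibitor of Janus kinases, went from 366 to 67.3 CPM and fell by 2.45 (SE 0.26, adjusted p 5.19e-05 by edgeR). Tlr3, the endosomal sensor of double-stranded RNA, went from 11.7 to 4.58 CPM and fell by 1.35 (SE 0.25, adjusted p 0.00163 by edgeR).

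The sub-lists are small, and 48.7% of all genes were called. Of 6 other class I genes 3 were higher and 0 lower. They were H2-T22, H2-T23 (1.09) and H2-Q4 (0.70), of which H2-Q4 lost its call without High Female1, High Male1 or Low Male2 and was at 0.16 under total counts. Among 10 genes of peptide supply and loading, 4 were higher (Tapbpl 1.34, Calr 1.07, Pdia3 0.52 and Canx 0.50) and 1 was lower (Psme1 −0.73). Under total counts Pdia3 and Canx were at −0.04 and −0.05. The call of Pdia3 was lost without High Female2, and that of Canx without Low Female1, Low Female2, High Female2, High Male1 or Low Male2. The immunoproteasome subunits Psmb8, Psmb9 and Psmb10 did not pass. Of 13 adaptors and sensors 4 were higher and 4 lower. These genes were singled out after their values were seen.

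Differences between animals ran through many members at once. In 17 of the 39 members (43.6%) both females were above both males in Low and again in High, which held for 1.56% of all genes. The reverse, both males above both females in both fractions, held for Tap2 and Tapbp (5.13%) and for 1.55% of all genes. The 17 genes were Stat2, Irf7, Ddx58, Dhx58, Isg15, Oas1a, Oas2, Oasl2, Ifit1, Mx1, Mx2, Bst2, Gbp3, Xaf1, Parp14, Rtp4 and Nlrc5. They include members that were higher, lower and not called between the fractions. No margin was required, and in Low the Stat2 values of Female2 and Male1 were both 14.4 CPM after rounding. The comparison by sex was chosen after these values had been seen, and with 2 animals of each sex a difference between the sexes and one between single animals cannot be told apart. Scaled by total counts the number was 20 (51.3% of members, 3.36% of all genes), and with RLE factors it was 17 (1.64% of all genes).

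Oas1a, a catalytically active synthetase, was at 3.09 and 2.56 CPM in the Low libraries of the females and at 1.34 and 1.06 in those of the males. In High it was at 5.33 and 4.96 CPM in the females and 1.33 and 1.13 in the males. When the counts of each animal were summed over its fractions and males were compared with females by edgeR, the log2 difference of Oas1a was −1.68 (SE 0.32, unadjusted p 0.000646, edgeR adjusted p 1). For Oas2 it was −1.66 (SE 0.33, unadjusted p 0.000818) and for Oasl2 −1.36 (SE 0.29, unadjusted p 0.00134), each with an edgeR adjusted p of 1. None of the 39 members passed adjustment over all genes, and 4 of 19687 genes (0.0203%) did. At an unadjusted p under 0.05 there were 10 members, beside 1.44% of all genes. They were Dhx58, Isg15, Oas1a, Oas2, Oas3, Oasl2, Ifit1, Xaf1, Rtp4 and Nlrc5, all lower in the males. Animals numbered 1 were above those numbered 2 in both fractions in 1 member (2.56%) and in 8.49% of all genes, and the reverse held in 4 members (10.3%) and in 15.5% of all genes.

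Whether the fraction difference itself depended on sex was tested with an interaction term. It passed in 0 of 17344 genes (0%) by edgeR, with 19 at an unadjusted p under 0.05. It also passed in 0 by DESeq2 and in 0 with the animal within sex as a block. Among the members only Oasl2 had an unadjusted p under 0.05, with a male minus female difference of −1.35 and an edgeR adjusted p of 1.

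**Figure D4:**
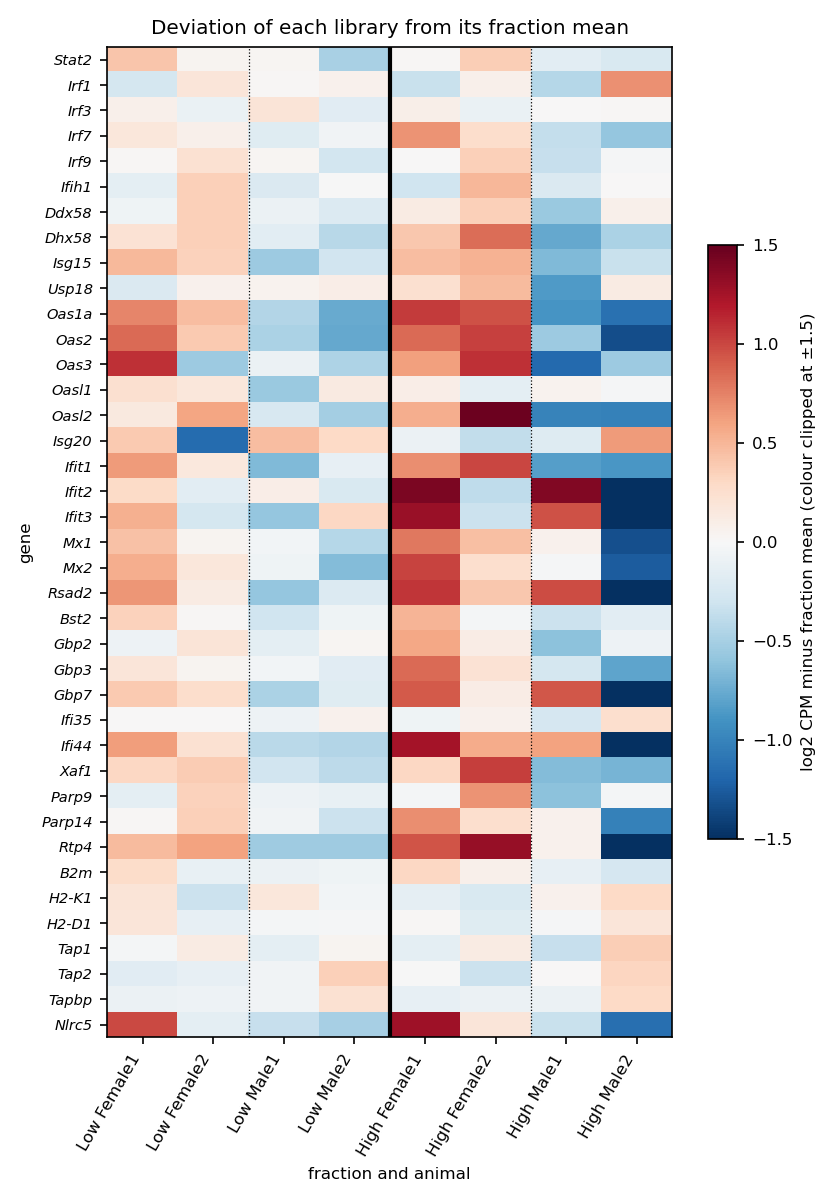
Heat map of the log2 CPM of each member (rows) in each library (columns) minus the mean of its fraction, with colour from blue (−1.5) to red (1.5). Isg15, Oas1a, Oas2, Oasl2 and Ifit1 are red in the female and blue in the male columns of both fractions, the class I rows other than Nlrc5 are pale, and Ifit2, Ifit3, Rsad2, Gbp7, Ifi44 and Rtp4 are darkest blue in High Male2.

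The profile shared by the members was the mean of their z-scored log2 CPM. It was at 0.32, 0.07, −0.21 and −0.26 in the Low libraries and 0.56, 0.45, −0.35 and −0.57 in the High libraries. The non-member genes of at least 5 CPM whose log2 CPM followed it most closely over the 8 libraries were Xist (Pearson r 0.93), Bola1 (0.92), Ndufc2 (0.89), Commd3 (0.89) and Snrnp27 (0.88). Xist is transcribed from the inactive X chromosome of females. These correlations describe 8 libraries that come in pairs from 4 animals and were not tested.

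Part of the member profile lay in the library that stood apart. For 10 members with a mean under 2 CPM (Ifit1, Ifit2, Ifit3, Mx1, Mx2, Rsad2, Gbp3, Gbp7, Ifi44 and Rtp4) the lowest of the 4 High libraries was Male2 in 10 of 10, and over all members in 19 of 39 (48.7%). The same held for 29.2% of all genes tested and for 52.9% of those with a mean under 2 CPM. Their summed CPM was 12.6, 10.3, 7.33 and 7.46 in Low and 14.7, 11.6, 8.88 and 2.26 in High. The summed CPM of the 18 leukocyte markers was 60, 45.1, 38 and 42.8 in Low and 72.5, 25.4, 53.1 and 3.76 in High. That of the 8 Langerhans and dendritic cell markers, of which 3 were lower in High and 0 higher, was 124, 75.2, 89.6 and 114 in Low and 93, 34.6, 64.6 and 12.5 in High. Both kinds of marker were lowest in the same library as the low members. So were the sums of 5 endothelial markers (1.39 CPM, against 7.4 to 22.3 elsewhere) and 5 muscle markers (1.18 CPM, against 10.3 to 32.1). The part of other cells in the levels of the low members was not tested. Without High Male2 the log2 fold change of Ifit2 was −0.38 in place of −0.77, that of Gbp7 was 0.24 in place of −0.08 and that of Rtp4 was 0.37 in place of 0.02, and none of the 3 passed. Without it Oasl1 was at 2.84, Isg15 at 1.63, Ifih1 at 1.36, H2-D1 at 1.19, Tapbp at 1.14, Ddx58 at −1.68, Usp18 at −2.37 and Irf1 at −2.61, each with its call. In the females above males pattern, the leukocyte sum of both females was above that of both males in Low but not in High.

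**Figure D5:**
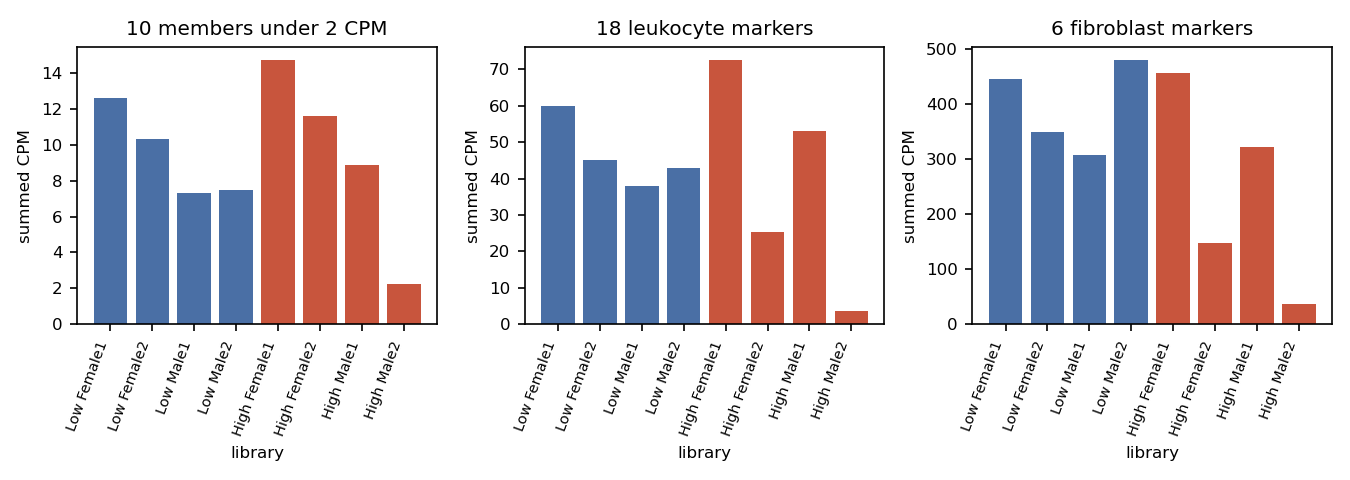
Summed CPM (y axes, each from 0) in each of the 8 libraries for the 10 members with a mean under 2 CPM, for 18 leukocyte markers and for 6 fibroblast markers, blue for Cyto-ID Low and red for High. All 3 panels have their lowest bar in High Male2, at 2.26, 3.76 and 36.6 CPM.

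Over the 17 fits run, 11 members (28.2%) were called with the same sign in every one, beside 31.5% of all genes. They were Irf1, Ifih1, Ddx58, Isg15, Usp18, Oasl1, Bst2, Gbp2, Parp14, H2-D1 and Tapbp. In 16 members (41%) no fit gave a call, beside 22.8% of all genes.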

How the data were processed

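RNA of 8 libraries, 4 Cyto-ID Low and 4 Cyto-ID High, was measured by bulk RNA-seq. The values are raw counts per gene symbol as deposited by the authors. The submitters' processing notes name STAR 2.7.3, DESeq2 and the build GRCm38, and the counting tool, its annotation and its strand setting are not given in the sources used here. Total counts, 26285150 to 29301054 per library, set the precision of low genes, which rest on few counts.

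From the counts, genes were kept by edgeR's filterByExpr per fraction, scaled by TMM and tested with edgeR 4.0.16 (R 4.3.3) by the quasi-likelihood test with sex and fraction as terms, with Benjamini-Hochberg adjustment over 17344 genes and a threshold of 0.05. The script was tested on simulated data. CPM are TMM-scaled, and CPM per kb use merged exons of GENCODE M21. Alternatives were RLE factors, total counts, no count filter, DESeq2 1.42.0, limma-voom 3.58.1, no sex covariate, the animal as a replicate block, leaving out each library in turn and, added after seeing the data, the label number in place of sex. The comparison of males with females on counts summed per animal, and its settings, were also chosen after seeing the data.

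Both libraries of an animal come from 1 cell suspension, per the titles and protocol, so the replicate names pair them. Deviations from the fraction means of the same animal correlated at 0.433, 0.316, −0.0161 and 0.277 (Female1, Female2, Male1, Male2), and those of different animals at −0.372 to 0.35. Libraries of a fraction differed by far more than counting noise (chi-square per degree of freedom at least 18).

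The members, the wider list, the marker lists and the rules were chosen with earlier results of these data known. Values per library are given for members that passed the test and for all transcription factors and class I genes. From the wider list the receptors, the interferons and the 4 largest changes each way with a mean of at least 5 CPM were named. The genes most like the members were the 5 with the highest Pearson correlation with the mean member profile. Promoter sequences are RefSeq's, of GRCm38.p6, matched by symbol for 29 of 39 members. An item of the wider list is not reported here.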

Additional observations from a re-analysis of the deposited data

Results flagged for a closer look

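Dixon's test was run on the extreme library of each of 78 groups (39 members in each fraction, 4 libraries a group). It marked 8 groups, where chance alone marks about 1 in 20. In Cyto-ID Low, Female1 stood apart with 15 CPM of Usp18, below the others, and 104 CPM of B2m and 4.17 CPM of Nlrc5, above them. Female2 stood apart in Low with 11.1 CPM of Isg20, below the others, and 20.1 CPM of Parp9, above them. Male1 had the lowest Oasl1 in Low, at 2.14 CPM. Male2 had the highest Tapbp in both fractions, at 70.9 CPM in Low and 174 CPM in High.

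Irf7 and Oasl2 were higher in High in both females and lower in both males. The male minus female difference in the log2 fold change was −0.72 for Irf7 and −1.35 for Oasl2, and the edgeR interaction test gave both an adjusted p of 1.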

How the results depend on the processing

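The alternative that moved the counts of members called, 12 higher and 6 lower, by over 1.5 times was scaling by total counts only. It gave 6 members higher and 11 lower, 12 and 32 genes of the wider list, and a median of the members of −0.55. It lowered the fold change of each member, as it did the median of all genes (−0.09 to −0.64). The sign turned from positive to negative in 9 members, of which Ifi35 (−0.03) and H2-K1 (−0.01) had been called and Tap1 (−0.55) was then called lower. In Irf9, Oas1a, Oas3, Oasl2, Rtp4 and Nlrc5 the values ran from −0.50 to −0.07, and neither scaling gave a call. Total counts called 10708 genes, of which 20.5% were higher, where TMM scaling had 48%. The other alternatives, left-out libraries included, gave 9 to 12 members higher and 5 to 7 lower, with 9 higher when there was no count filter, no sex covariate or the label number in place of sex. For the wider list, with 20 higher and 17 lower, they gave 17 to 22 higher and 12 to 19 lower, the 12 being without High Male1. With the animal as a replicate block 9336 genes were called, with 12 members higher and 7 lower, and of the members only the call of Irf3 changed. When each library was left out the number of genes called was 7269 to 8106, against 8440 with all libraries. Members under 2 CPM had at most 88 counts per library, which limits what their tests could detect.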

Other observations

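Other genes of the wider list that were not named by rule are given here as values, chosen after they were seen. Dtx3l, the ubiquitin ligase that pairs with Parp9, was at 13.5 CPM in Low and 6.59 CPM in High (log2 fold change −1.05, edgeR adjusted p 0.00477), where Parp9 did not pass. Pml, the organizer of nuclear bodies, was at 36.7 and 15.5 CPM (−1.25, edgeR adjusted p 0.000348). Ifitm2, a neighbour of Ifitm3 in the same family, was at 43.2 and 18.5 CPM (−1.22, edgeR adjusted p 0.000179), while Ifitm1 was at 1.83 and 1.77 CPM and did not pass. The chemokine gene Cxcl10 was at 66 and 36 CPM (−0.83, edgeR adjusted p 0.0248), a call that was lost without High Female1 or High Male1, and Cxcl9 and Cxcl11 were too low to be tested. On the higher side Herc6, the mouse ligase that attaches Isg15, went from 1.74 to 4.48 CPM (1.36, edgeR adjusted p 0.000497), and the DNA sensor Cgas from 7.94 to 15.9 CPM (1.01, edgeR adjusted p 0.00312). Under total counts Cgas was at 0.44 and did not pass. Traf6 and Myd88, adaptors of Toll-like receptors, rose by 1.13 and 0.90, while Ticam1, the adaptor of Tlr3, fell by 0.45, with its call lost without Low Male1 or High Male1.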
